A study of Schizosaccharomyces pombe with 6 samples.

Results

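The long noncoding RNAs of fission yeast described here are the 244 transcripts whose identifier starts with SPNCRNA, whose length in the count table is at least 2000 nucleotides and which held at least 30 counts summed over the 6 libraries, with SPNCRNA.103 and SPNCRNA.214 left out by name. They are 244 of 1535 SPNCRNA identifiers and of 7268 genes counted. Of the 261 SPNCRNA identifiers of that length, 17 fell below the count minimum, 8 of them with 0 counts, and the exclusion by name removed no other. The members were thus chosen by the summed counts of these same libraries, and the values behind that choice are given as a description. At the length limit, SPNCRNA.1678 (2007 nucleotides), SPNCRNA.1448 (2010) and SPNCRNA.1489 (2012) were just inside and SPNCRNA.772 (1998), SPNCRNA.936 (1995) and SPNCRNA.1398 (1994) just outside. At the count limit, SPNCRNA.913 (40 counts), SPNCRNA.848 (54) and SPNCRNA.584 (55) were just inside and SPNCRNA.516 (29), SPNCRNA.1481 (24) and SPNCRNA.1657 (18) just outside.

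RNA was sequenced from untreated cultures of the wild type strain 972 (WT) and of strains labelled as deletions of *saf5* and *cwf12*, with 2 libraries per strain. The study places Cwf12 in a complex that works with the splicing machinery. It relates Saf5 to the assembly of the RNA-protein particles used in splicing. All strains were grown in YE5S, a rich medium, at 30 °C to an OD600 of 0.5. The question is how transcripts that are not translated differed between WT, the libraries labelled *Δsaf5* and *Δcwf12*. Whether each deletion strain is 1 clone is not given in the sources used here.

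Long noncoding RNAs in yeast are transcribed by RNA polymerase II from intergenic promoters, from the ends of neighbouring genes or on the strand opposite a coding gene. In growing cells many of them are kept at low levels by chromatin that limits cryptic transcription, by transcription termination, and by the nuclear exosome with its adaptors. In fission yeast one such adaptor is Mmi1, a protein that binds a short RNA motif and marks meiotic and noncoding transcripts for elimination. Transcription through an antisense or upstream transcript is known to lower or raise a neighbouring coding gene, depending on the locus.

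The targeted genes were read first, as a check on the labels. Counts on *cwf12* dropped from 556 and 531 in WT to 41 and 32 in *Δcwf12*. On *saf5* there were 220 and 249 counts in the libraries labelled *Δsaf5*, against 323 and 234 in WT. The counts on *saf5* therefore do not show its deletion, and each direction given below for the libraries labelled *Δsaf5* rests on their labels. Library totals ran from 9113139 to 12054198 counts. Over all genes tested, the chi-square of the counts per degree of freedom between the 2 libraries of a strain was 22.1 for WT, 6.17 for those labelled *Δsaf5* and 2.0 for *Δcwf12*, so over these genes the replicates of each strain differed beyond counting noise and were kept as separate samples. For the long noncoding RNAs alone the values were 2.97, 1.54 and 1.06. The last of these was not beyond counting noise (chi-square test, p = 0.26). The mating and pheromone genes, read here as markers of other cell states, had 4 of 10 members called higher in the libraries labelled *Δsaf5*, while *Δcwf12* had 1 higher and 1 lower. Of all genes tested, 6.20% were called higher in the *Δsaf5*-labelled libraries, and 7.31% higher and 2.64% lower in *Δcwf12*. DESeq2 called 3 and 1 of the 10 in the same order of strains. The log2 fold changes of the 10 genes ran from -0.05 to 2.25 in the *Δsaf5*-labelled libraries and from -3.44 to 1.44 in *Δcwf12*. Their summed level was 588 and 650 CPM (counts scaled by library size and TMM factor) in WT, 651 and 655 in the *Δsaf5*-labelled libraries and 538 and 518 in *Δcwf12*, with none of the 10 at 0, and their part in the results was not tested.

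The annotation of the ASM294v3 genome, used for positions and names, matched 241 of the 244 transcripts, and the lengths of 237 equalled the annotated span. The unmatched ones are SPNCRNA.1217, SPNCRNA.1366 and SPNCRNA.1531. The lengths ran from 2007 to 5317 nucleotides with a median of 2586, and no matched member holds an annotated intron. Chromosome I carries 112 of them, chromosome II 90 and chromosome III 39. Of the matched members, 175 (72.6%) have at least 50% of their span opposite coding genes on the other strand, against 41.6% of the 1179 matched noncoding RNAs under 2000 nucleotides, and 84 have at least 90%. A start within 500 nucleotides of the end of a coding gene on the same strand was found for 35 members (14.5%, against 16.0% of the shorter ones), and a start within 500 nucleotides of the start of a divergent coding gene for 92 (38.2%, against 34.9%). Another gene overlaps 52 members on the same strand, 17 of them over more than 10% of the span, where reads cannot be assigned to one or the other with certainty.

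Because most members lie opposite coding genes, the counts were checked for strand. Of the coding genes that lie wholly inside a member on the other strand, 57 of 63 held at least 100 counts, with a median of 4321 and a maximum of 80969 (*lys9*), reads that would have been ambiguous in a count without strand. For the 175 members with at least 50% of their span opposite coding genes, the level was set against the summed level of those genes in the overlap. In WT replicate 2, 174 of them had opposite reads. The lowest antisense to sense ratio among them was 0.334% to 0.523%, depending on the library. At the locus with the lowest ratio, no more than this share of sense reads was thus counted on the wrong strand. The median of these members stood at 11.4% and 10.9% of the opposite coding level in WT, 16.9% and 16.5% in the libraries labelled *Δsaf5* and 20.5% and 19.1% in *Δcwf12*. Of these 175, those above their opposite coding level numbered 24 in each WT library, 24 and 26 in the *Δsaf5*-labelled libraries, and 37 and 36 in *Δcwf12*.

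Promoter windows of 2 members, 250 bases before to 50 bases after the annotated start, are given as RefSeq sequence of the ASM294v3 genome, 5′ to 3′ on the strand of the transcript. SPNCRNA.795 had the largest increase in *Δcwf12*, and SPNCRNA.1252 had the largest increase among members with over 10 counts per library in the *Δsaf5*-labelled libraries. Capitals mark TATAAA, the core of the TATA box, on either strand (TTTATA on the other). The windows lie at chrI:2114550-2114849 and chrIII:2003846-2004145, in this order and both on the minus strand.
SPNCRNA.795: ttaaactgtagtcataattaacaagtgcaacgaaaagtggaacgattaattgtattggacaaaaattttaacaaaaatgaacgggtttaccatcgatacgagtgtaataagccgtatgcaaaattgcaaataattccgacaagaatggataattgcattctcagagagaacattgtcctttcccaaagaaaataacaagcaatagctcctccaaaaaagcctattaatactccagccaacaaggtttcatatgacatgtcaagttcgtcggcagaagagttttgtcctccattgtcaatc
SPNCRNA.1252: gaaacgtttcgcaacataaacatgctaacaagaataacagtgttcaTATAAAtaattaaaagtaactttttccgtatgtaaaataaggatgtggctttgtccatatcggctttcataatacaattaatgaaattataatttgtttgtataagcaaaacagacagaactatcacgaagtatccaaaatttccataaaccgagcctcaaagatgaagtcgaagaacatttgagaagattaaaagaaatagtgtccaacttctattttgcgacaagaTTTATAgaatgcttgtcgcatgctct
TATAAA was present once on each strand of the window of SPNCRNA.1252 and absent from that of SPNCRNA.795. In SPNCRNA.1252 the copy on the transcript's strand lies near the far end of the 250 bases before the annotated start. The copy on the other strand lies in the 50 bases after it. Whether either acts as a TATA box was not tested. On the transcript's strand it was found in the windows of 27.4% of the 241 members and in 30.4% of the windows of all 6845 matched genes. G and C made up 31.3% of the SPNCRNA.1252 window and 35.7% of that of SPNCRNA.795. Within the transcripts, TNAAAC, the core motif bound by Mmi1, occurred 1.81 times per kb on the transcribed strand of members and 1.95 times on the other strand, against 2.04 and 2.05 in shorter noncoding RNAs. Members higher in the *Δsaf5*-labelled libraries held 1.84 and members higher in *Δcwf12* 1.81 per kb.

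The long noncoding RNAs took a larger share of all counted reads in both deletions than in WT, as did noncoding RNAs as a whole. In bulk RNA, a transcript present in fewer cells cannot be told apart from one at a lower level in each cell. They held 0.373% (95% Wilson interval 0.369% to 0.377%) and 0.348% (0.344% to 0.352%) of the counts in the WT libraries. The *Δsaf5*-labelled libraries held 0.471% (0.466% to 0.475%) and 0.447% (0.442% to 0.451%), and the *Δcwf12* libraries 0.623% (0.619% to 0.627%) and 0.638% (0.633% to 0.643%). The groups did not overlap, and the *Δcwf12* libraries were the highest. All noncoding RNAs held 0.851% and 0.795% in WT, 1.12% and 1.05% in the *Δsaf5*-labelled libraries and 1.30% and 1.36% in *Δcwf12*. As a percent of the counts on noncoding RNAs, the members held 43.8 and 43.7 in WT, 42.2 and 42.7 in the *Δsaf5*-labelled libraries and 47.8 and 47.0 in *Δcwf12*, so with this denominator the libraries labelled *Δsaf5* lay below WT. The intervals cover counting error only, and with 2 libraries against 2 no exact test of the shares can reach p under 0.05. As levels per length, the median member stood at 3.38 and 3.23 CPM per kb in WT, 4.52 and 4.49 in the *Δsaf5*-labelled libraries and 5.22 and 5.29 in *Δcwf12*. The lowest member stood at 0.0478 and 0.0598 CPM per kb in WT, at 0.269 and 0.297 in the *Δsaf5*-labelled libraries and at 0.221 and 0.230 in *Δcwf12*.

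Differences between strains were fitted with edgeR over all 6018 genes that passed the filter on low counts, and 243 of the 244 members were among them. To be called, a gene had to differ by a log2 fold change of 1 or more in either direction and reach an adjusted p under 0.05. In *Δcwf12*, 85 members (35.0%) were called higher than in WT and 9 (3.70%) lower, against 7.31% of all genes tested called higher and 2.64% lower. The median log2 fold change of the members was 0.73, and that of all genes tested -0.00. Both *Δcwf12* libraries lay above both WT libraries for 178 members (73.3%), against 38.0% of all genes tested, and below them for 30, against 37.8%. In the *Δsaf5*-labelled libraries, 37 members (15.2%) were called higher and 13 (5.35%) lower, against 6.20% and 2.49% of all genes tested. The median was 0.36, beside 0.02 over all genes, and 145 members lay above WT in both libraries and 40 below, against 38.1% and 35.6% of all genes.

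**Figure D1:**
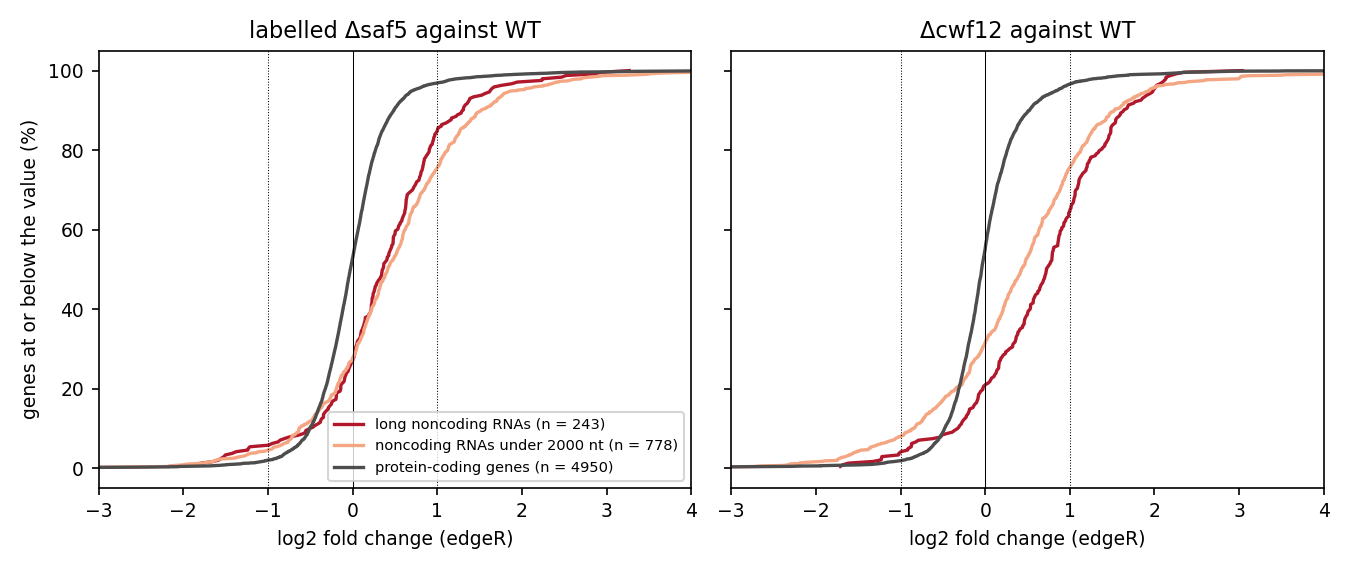
Cumulative distribution of edgeR log2 fold changes against WT for the 243 long noncoding RNAs tested, 778 noncoding RNAs under 2000 nucleotides and 4950 protein-coding genes, in the *Δsaf5*-labelled libraries (left) and in *Δcwf12* (right); the horizontal axis runs from -3 to 4. In *Δcwf12* the long noncoding RNAs lie to the right of the shorter ones at the median (0.73 and 0.43) and the upper quartile (1.19 and 0.98) but end at 3.04, short of both other classes, while in the *Δsaf5*-labelled libraries they lie slightly to the left at both (0.36 and 0.42, 0.82 and 0.98).

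By transcript length, the shares called higher ran in opposite directions in the deletions. In *Δcwf12* the share called higher was 18.2% of noncoding RNAs under 1000 nucleotides, 26.7% of those from 1000 to under 2000 and 35.0% of the long ones, with medians of 0.36, 0.48 and 0.73. In the *Δsaf5*-labelled libraries the shares were 23.8%, 22.2% and 15.2%, with medians of 0.49, 0.37 and 0.36. Protein-coding genes stood at 3.31% and 3.03%. Within the long noncoding RNAs the shares called higher ran in the same directions. The classes were 2000 to under 2300, 2300 to under 3000 and 3000 or more nucleotides. In *Δcwf12* the shares were 22 of 72 (30.6%), 32 of 90 (35.6%) and 31 of 81 (38.3%). In the *Δsaf5*-labelled libraries they were 12 of 72 (16.7%), 14 of 90 (15.6%) and 11 of 81 (13.6%), so these classes differ by few members. The medians did not follow that order, at 0.67, 0.79 and 0.72 in *Δcwf12* and 0.38, 0.41 and 0.27 in the *Δsaf5*-labelled libraries. Length was not tested as a term. The long noncoding RNAs also lie opposite coding genes over at least 50% of the span more often than shorter ones (72.6% against 41.6%). The part of this difference was not tested.

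Among members higher in *Δcwf12*, SPNCRNA.795 had the largest log2 fold change. This transcript of 2529 nucleotides on chromosome I starts 314 nucleotides after the end of *tfs1*, which encodes a transcription elongation factor, and lies largely opposite *utp5*, a ribosome biogenesis gene. It stood at 4.31 and 6.48 CPM in WT, 14.5 and 14.7 in the *Δsaf5*-labelled libraries and 44.8 and 44.0 in *Δcwf12*. The 3 strains did not overlap, with *Δcwf12* the highest. Its log2 fold change in *Δcwf12* was 3.04 (standard error 0.16, edgeR adjusted p = 2.1e-08) and 1.43 in the *Δsaf5*-labelled libraries (0.18, adjusted p = 5.8e-05). Neither neighbour was called: the log2 fold changes of *tfs1* were -0.10 and -0.25 and those of *utp5* -0.34 and -0.32, in the same order.

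Other members rose in *Δcwf12* and gave smaller values in the *Δsaf5*-labelled libraries. SPNCRNA.763, opposite *sgt1*, stood at 13.0 and 10.7 CPM in WT, 10.9 and 8.48 in the *Δsaf5*-labelled libraries and 50.9 and 52.2 in *Δcwf12*. The *Δcwf12* libraries were far above the other 4, which overlapped one another. The log2 fold change was 2.12 (standard error 0.13, adjusted p = 9.6e-08 from edgeR) in *Δcwf12* and -0.29 (adjusted p = 0.17) in the *Δsaf5*-labelled libraries. SPNCRNA.1195, wholly opposite *tti1*, which encodes a partner of Tel2, rose from 9.48 and 8.92 CPM to 39.6 and 37.5 in *Δcwf12*, with 10.9 and 12.5 in the *Δsaf5*-labelled libraries. SPNCRNA.1435, over the whole of the meiotic gene *mug93*, rose by 2.10 and SPNCRNA.1195 by 2.07 on the log2 scale in *Δcwf12* (edgeR, adjusted p = 2.3e-07 and 1.0e-07). Both were past the threshold in *Δcwf12* only, and the direct contrast of the deletions gave -1.67 and -1.72 for them (edgeR, adjusted p = 1.1e-06 and 3.4e-07).

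SPNCRNA.1118 held the most reads of the members that rose in *Δcwf12*. It covers the whole of *ght6*, a hexose transporter gene on the other strand, and starts 313 nucleotides after a coding gene. It stood at 73.6 and 72.5 CPM in WT, 67.4 and 79.1 in the *Δsaf5*-labelled libraries and 219 and 204 in *Δcwf12*. WT and the *Δsaf5*-labelled libraries overlapped, and *Δcwf12* lay above both. The log2 fold change in *Δcwf12* was 1.54 (standard error 0.08, edgeR adjusted p = 2.1e-08) and 0.00 in the *Δsaf5*-labelled libraries (adjusted p = 0.98). *ght6* itself had few reads, 3 and 6 counts in WT, 16 and 15 in the *Δsaf5*-labelled libraries and 31 and 39 in *Δcwf12*, with log2 fold changes of 1.68 and 2.75 (edgeR, adjusted p = 0.014 and 0.00019). The counts on *ght6* came to 0.439% and 0.878% of those on SPNCRNA.1118 in WT, 2.36% and 1.96% in the *Δsaf5*-labelled libraries and 1.23% and 1.95% in *Δcwf12*. In WT they are near the lowest antisense to sense ratios given above, and the part of reads on the wrong strand in the *ght6* values was not tested. SPNCRNA.1263, the longest member at 5317 nucleotides, gave 1.05 (edgeR, adjusted p = 5.3e-07), and without WT replicate 2 it was just under the threshold (0.998). SPNCRNA.1643 gave 1.0 and was under the threshold without WT replicate 2 (0.97), without *Δcwf12* replicate 2 (0.98) and with DESeq2 (0.99).

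Other members that rose in *Δcwf12* also passed the threshold in the *Δsaf5*-labelled libraries. SPNCRNA.1202, opposite the sulfite reductase gene *met10*, stood at 7.22 and 7.22 CPM in WT, at 16.1 and 19.2 in the *Δsaf5*-labelled libraries and 36.8 and 32 in *Δcwf12*. SPNCRNA.980, over the whole of *ayr1*, was at 10.8 and 15.4 CPM in WT, 25.1 and 27.3, and 55.0 and 60.2. For both, all 3 strains were apart in the same order. Their log2 fold changes against WT were 1.29 and 2.25 for SPNCRNA.1202 and 1.0 and 2.13 for SPNCRNA.980 (edgeR, adjusted p = 6.4e-05, 1.7e-07, 0.00020 and 1.2e-07, the *Δsaf5*-labelled libraries first in each pair). The 1.0 of SPNCRNA.980 lay at the threshold and was under it with DESeq2 (0.99) and without WT replicate 1 (0.76) or replicate 2 of the *Δsaf5*-labelled libraries (0.94). SPNCRNA.1362 gave 1.88 and 2.19 and SPNCRNA.1667 1.01 and 2.03 in the same order, the first of these 2 on 9 and 7 counts in WT. The 1.01 of SPNCRNA.1667 fell to 0.90 without WT replicate 1 and to 0.98 without replicate 2 of the *Δsaf5*-labelled libraries.

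In the *Δsaf5*-labelled libraries, the members with the largest rises were partly transcripts with few reads. SPNCRNA.1121 gave the largest fitted value, 3.27 (standard error 0.48, adjusted p = 0.00017 from edgeR), on 1 and 4 counts in WT and 28 and 25 in the *Δsaf5*-labelled libraries. SPNCRNA.584, opposite *ski3*, a subunit of the cytoplasmic exosome cofactor, held 2 and 2 counts in WT, 17 and 15 in the *Δsaf5*-labelled libraries and 10 and 9 in *Δcwf12*. The ratio to WT was 7.58 in the *Δsaf5*-labelled libraries (95% counting interval 2.69 to 29.5) and 4.18 in *Δcwf12* (1.39 to 16.9). These values rest on few WT reads. SPNCRNA.584 held 55 counts in all, 4 of them in WT and 19 in *Δcwf12*. It therefore passed the minimum of 30 counts only through the *Δsaf5*-labelled libraries, where it was highest. Its ratio and its call there are a description, and the interval takes no account of this selection. The matched members were split into 3 classes of 80 by their CPM in *Δcwf12*, which gives no value to the contrast of the *Δsaf5*-labelled libraries with WT. The class of lowest level then had 20 members called higher in the *Δsaf5*-labelled libraries, the middle class 9 and the highest class 7, and with a split on the WT level the counts were 23, 10 and 3. The WT libraries are part of that contrast, so the WT split is not independent of it. The count minimum also summed all 6 libraries, so a transcript with few reads in WT and *Δcwf12* could enter only through the *Δsaf5*-labelled libraries. The part of this selection in the counts by class was not tested. For *Δcwf12* against WT the counts were 19, 29 and 36 by level in the *Δsaf5*-labelled libraries and 24, 34 and 26 by level in WT, so the order of the classes there depends on the libraries that set them. At the low end, the 5th percentile of the members' levels was 0.387 and 0.472 CPM per kb in WT, 0.716 and 0.697 in the *Δsaf5*-labelled libraries and 0.657 and 0.681 in *Δcwf12*, and the part of such a shift in the calls at low level was tested only by taking the lowest level per kb of each library off every gene, which left 30 members called higher in the *Δsaf5*-labelled libraries and 81 in *Δcwf12*.

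SPNCRNA.1252 had the largest rise among members with at least 10 counts in each library. It is 3219 nucleotides long, on chromosome III, and covers 85.4% of *ams2*, which encodes a GATA factor needed for histone gene transcription. It stood at 6.89 and 5.10 CPM in WT, 34.6 and 34.3 in the *Δsaf5*-labelled libraries and 24.5 and 20.4 in *Δcwf12*. No strain overlapped another, and the *Δsaf5*-labelled libraries were the highest. The log2 fold change was 2.52 (standard error 0.16, adjusted p = 2.4e-07 from edgeR) in the *Δsaf5*-labelled libraries and 1.91 (adjusted p = 2.1e-06) in *Δcwf12*. On the other strand, *ams2* stood at 129 and 110 CPM in WT, 49.1 and 48.5 in the *Δsaf5*-labelled libraries and 71.2 and 70.0 in *Δcwf12*, so that it was lowest where the noncoding RNA was highest. It fell in the *Δsaf5*-labelled libraries (log2 fold change -1.29, adjusted p = 2.4e-07 from edgeR), and gave -0.76 in *Δcwf12*, below the threshold in size.

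SPNCRNA.887, SPNCRNA.905 and SPNCRNA.679 also rose in both deletions. SPNCRNA.887, opposite *slx4*, a subunit of a structure-specific nuclease, was at 5.82 and 6.48 CPM in WT, 33.9 and 24.3 in the *Δsaf5*-labelled libraries and 23.6 and 21.0 in *Δcwf12*. Its log2 fold changes were 2.24 and 1.86 (edgeR, adjusted p = 2.3e-06 and 9.1e-06). On the other strand *slx4* rose in *Δcwf12*, by 1.11, and gave -0.51 in the *Δsaf5*-labelled libraries. SPNCRNA.905, opposite *inv2*, gave 2.23 and 1.68, and SPNCRNA.679, with no coding gene opposite it, gave 1.95 and 1.84. The direct contrast of the deletions gave 0.39, 0.55 and 0.10 for these members, none of them past the threshold in size (standard errors 0.15, 0.14 and 0.16). SPNCRNA.1467 starts 28 nucleotides after the clathrin light chain gene *clc1* and covers the mitochondrial transporter gene *mdl1*. It rose in the *Δsaf5*-labelled libraries, from 2.91 and 2.02 to 8.35 and 8.38 CPM (log2 fold change 1.76, adjusted p = 0.00013 from edgeR), with 3.31 and 4.19 in *Δcwf12*.

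**Figure D2:**
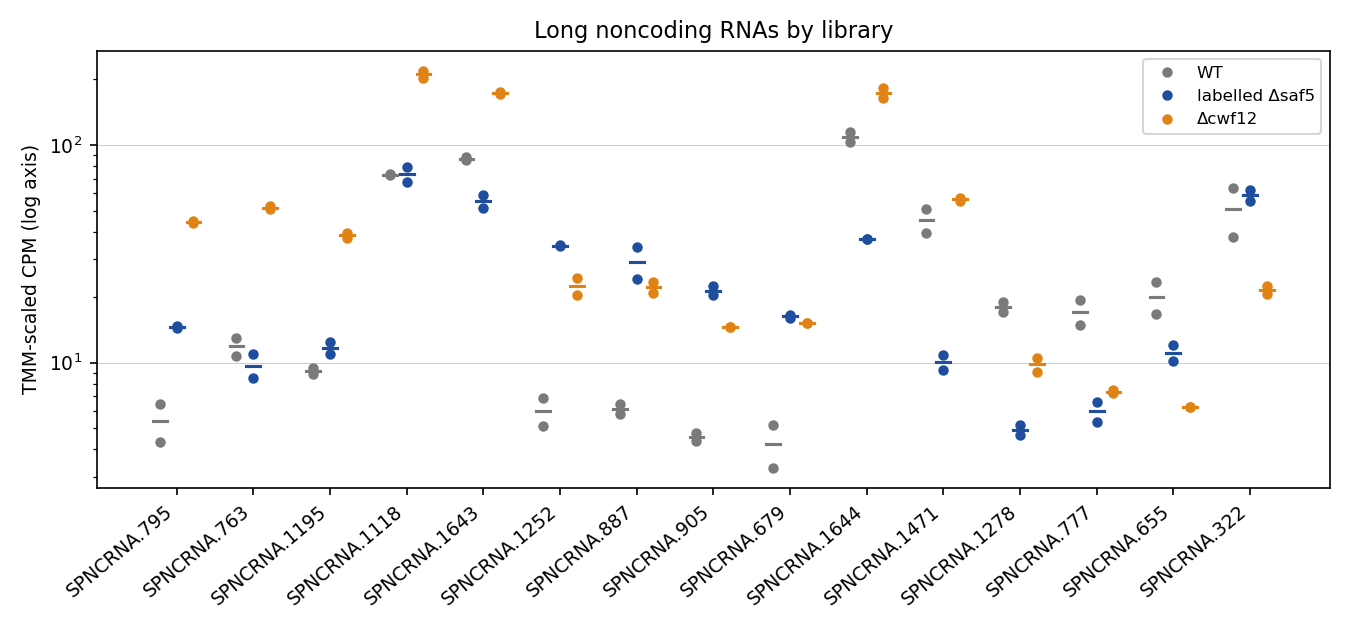
TMM-scaled CPM on a log axis for 15 long noncoding RNAs in each library, with WT in grey, the *Δsaf5*-labelled libraries in blue and *Δcwf12* in orange; points are libraries and bars are means of 2. SPNCRNA.795 and SPNCRNA.763 are highest in *Δcwf12*, SPNCRNA.1252, SPNCRNA.905 and SPNCRNA.679 are above WT in both deletions, and SPNCRNA.1644 and SPNCRNA.1471 fall in the *Δsaf5*-labelled libraries while *Δcwf12* lies above WT.

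A smaller set of members fell. SPNCRNA.1471, over the whole of the F-box gene *pof9*, had the largest fall. It stood at 50.6 and 39.5 CPM in WT, 9.24 and 10.9 in the *Δsaf5*-labelled libraries and 57.3 and 55.3 in *Δcwf12*. The libraries labelled *Δsaf5* were apart from the other 4. The log2 fold change was -2.16 (standard error 0.14, adjusted p = 2.9e-07 from edgeR), and *Δcwf12* gave 0.32. *pof9* rose in the *Δsaf5*-labelled libraries, from 17.1 and 13.6 to 31.7 and 33.8 CPM (log2 fold change 1.09, adjusted p = 4.6e-05 from edgeR). SPNCRNA.1644, the member with the highest WT level per kb, covers *spo4*, the kinase of the second meiotic division. It stood at 114 and 104 CPM in WT, 37.2 and 37.1 in the *Δsaf5*-labelled libraries and 182 and 165 in *Δcwf12*, with no overlap between strains. Its log2 fold changes were -1.55 and 0.67 (edgeR, adjusted p = 4.8e-08 and 1.0e-05). SPNCRNA.1606 gave -1.58 and 0.57 (edgeR, adjusted p = 3.4e-07 and 0.00020), at 43.6 and 39.5, 14.4 and 13.4, and 61 and 62.4 CPM in the same order of strains.

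Members lower in both deletions included SPNCRNA.777, which stood at 19.4 and 15.0 CPM in WT, 5.37 and 6.62 in the *Δsaf5*-labelled libraries and 7.24 and 7.46 in *Δcwf12* (log2 fold changes -1.52 and -1.22, adjusted p = 5.7e-05 and 0.00015 from edgeR). SPNCRNA.1395 gave -1.64 and -1.71. SPNCRNA.1301, 16 coding genes from the end of chromosome II and partly opposite *grt1*, gave -1.38 and -1.02. Here the opposite gene moved the same way: *grt1* fell by 3.78 and 3.67 on the log2 scale, from 124 and 113 counts in WT to 9 and 9 in the *Δsaf5*-labelled libraries and 13 and 8 in *Δcwf12*. The -1.02 of SPNCRNA.1301 lost its call with DESeq2 (-1.04), without WT replicate 2 (-0.80) and without either *Δcwf12* replicate, and the -1.38 lost its call without replicate 2 of the *Δsaf5*-labelled libraries (-1.21). In *Δcwf12* the largest falls besides SPNCRNA.1395 were SPNCRNA.655 (-1.68) and SPNCRNA.1063 (-1.62), which gave -0.86 and -0.81 in the *Δsaf5*-labelled libraries. SPNCRNA.322 stood at 63.5 and 37.7 CPM in WT, 55.2 and 62.0 in the *Δsaf5*-labelled libraries and 20.6 and 22.6 in *Δcwf12*. The WT libraries were the most spread, and *Δcwf12* was below all others. Its log2 fold change was -1.23 (edgeR, adjusted p = 0.00020), and without WT replicate 1 it gave -0.81.

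The direct contrast of the deletions called 15 members higher in the *Δsaf5*-labelled libraries than in *Δcwf12* (6.17%) and 49 lower (20.2%), against 3.95% and 4.62% of all genes tested. The median was -0.28 for the members, and 0.01 for all genes. Both libraries labelled *Δsaf5* lay below both *Δcwf12* libraries for 141 members (58.0%) and above them for 65 (26.7%), against 40.2% of all genes in each direction. The largest value in this direction was SPNCRNA.1471 (-2.49, adjusted p = 4.1e-08 from edgeR), followed by SPNCRNA.763 (-2.41), SPNCRNA.1546 (-2.37), SPNCRNA.1644 (-2.22) and SPNCRNA.1606 (-2.14). SPNCRNA.1546, opposite *sfc3*, a subunit of the polymerase III factor TFIIIC, stood at 16.9 and 14.9 CPM in WT, 8.84 and 7.55 in the *Δsaf5*-labelled libraries and 42.7 and 42.0 in *Δcwf12*. In the other direction, SPNCRNA.1675 stood at 1.83 and 3.5 CPM in WT, 6.56 and 6.72 in the *Δsaf5*-labelled libraries and 1.05 and 2.04 in *Δcwf12* (log2 fold change 2.13 between the deletions, adjusted p = 0.00021 from edgeR). Its rise against WT (1.31) fell to 0.92 without WT replicate 1. By level in WT, whose libraries give no value to this contrast, the lowest, middle and highest class of CPM had 7, 18 and 24 of 80 members lower in the *Δsaf5*-labelled libraries and 7, 5 and 2 higher.

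**Figure D3:**
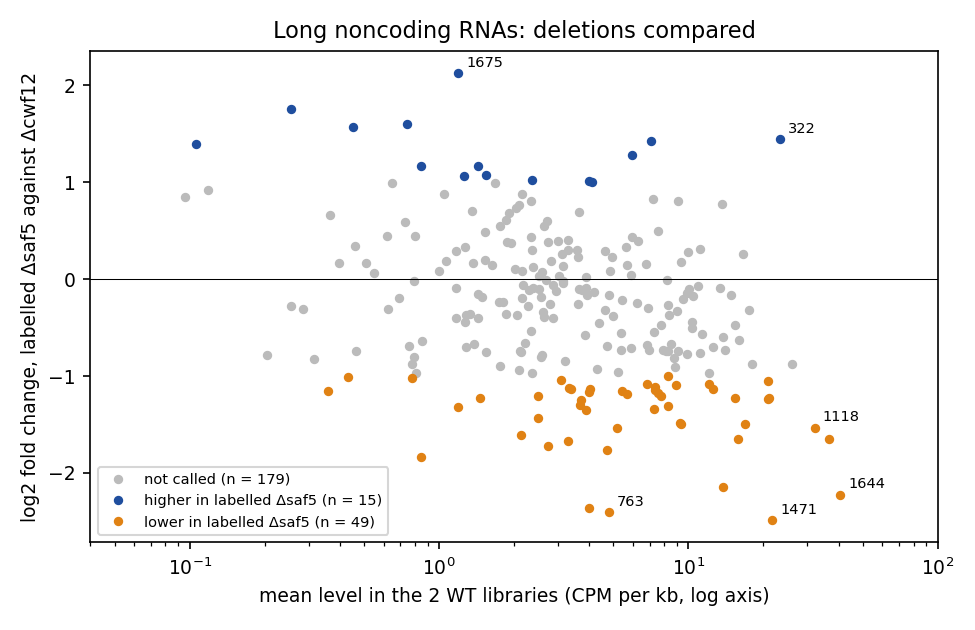
The edgeR log2 fold change of the *Δsaf5*-labelled libraries against *Δcwf12* for each of the 243 tested long noncoding RNAs, against its mean level in the 2 WT libraries in CPM per kb on a log axis; numbers are SPNCRNA identifiers. Members called lower in the *Δsaf5*-labelled libraries (orange, 49) and those called higher (blue, 15) overlap in WT level, and the furthest to the right is SPNCRNA.1644, which was lower.

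Members opposite coding genes were more often called higher, and so were members behind a coding gene, as a description without a test. By the share of the span opposite coding genes, 7 of 36 members (under 10%), 7 of 30 (10% to under 50%), 34 of 90 (50% to under 90%) and 36 of 84 (90% or more) were called higher in *Δcwf12*, with medians of 0.53, 0.64, 0.76 and 0.84. In the *Δsaf5*-labelled libraries the counts were 4, 3, 15 and 14 of the same totals. The 17 members with over 10% same-strand overlap were left out as an alternative, without moving the counts by more than 1.5 times. A start behind a coding gene of the same strand went with more calls in the *Δsaf5*-labelled libraries: 13 of 35 (37.1%), against 12 of 88 for members near a divergent coding start and 11 of 117 for neither. In *Δcwf12* these counts were 15, 32 and 37.

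For these tandem members the gene in front was measured as well. The 33 pairs tested had starts from 45 nucleotides before to 499 nucleotides after the end of the upstream gene, 6 of them overlapping it. The members had a median of 0.92 in the *Δsaf5*-labelled libraries and the genes in front a median of 0.04. The gene in front gave the lower log2 fold change in 23 of 33 pairs, and in 26 of 33 in *Δcwf12*. Among all members tested, 73.3% and 79.4% were above zero, in the same order. The median coding gene gave -0.03 and -0.04, and whether genes in front differ from other coding genes was not tested. In the *Δsaf5*-labelled libraries 3 genes in front were called higher and 0 lower, and in *Δcwf12* 1 higher and 1 lower. For the 12 members called higher, which were picked for their rise, the genes in front had a median of -0.05, and for the 15 called higher in *Δcwf12* a median of -0.10. SPNCRNA.839 lies 199 nucleotides behind *fas2*, a fatty acid synthase gene, and gave 1.53 where *fas2* gave -0.62. SPNCRNA.1033 lies 389 nucleotides behind *gas1*, a cell wall glucan enzyme gene, and gave 1.67 where *gas1* gave -0.03. The other way, SPNCRNA.858 gave 1.22 where the gene in front, SPACUNK4.20, was called higher too, at 1.09. All these values are from the *Δsaf5*-labelled libraries. Where the RNAs start and whether they are continuous with the gene in front cannot be read from gene counts. The members named in this paragraph were chosen after their values were seen.

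Most coding genes opposite members that rose were not called. For 169 members with at least 50% of the span opposite coding genes, the coding gene with the largest overlap was compared. In the *Δsaf5*-labelled libraries, the 29 members called higher had opposite genes with a median of -0.22, 23 of them below zero and 1 called, *ams2*, which was lower. Opposite the 136 members not called, the median was -0.06, with 78 genes below zero, 10 called higher and 3 lower, and of all coding genes 3.03% were called higher and 1.96% lower. In *Δcwf12*, the 68 members called higher had opposite genes with a median of 0.00, 34 of them below zero, 5 called higher and 3 lower. Opposite the 96 members not called, the median was 0.02, with 47 below zero, 5 called higher and 3 lower, and of all coding genes 3.31% were called higher and 1.78% lower. Over the 169 pairs the Spearman correlation between the log2 fold change of the noncoding RNA and that of the opposite gene was -0.18 in the *Δsaf5*-labelled libraries and -0.11 in *Δcwf12*, and Pearson's correlation was -0.08 and 0.04, given as descriptions, since both members of a pair share libraries and locus.

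**Figure D4:**
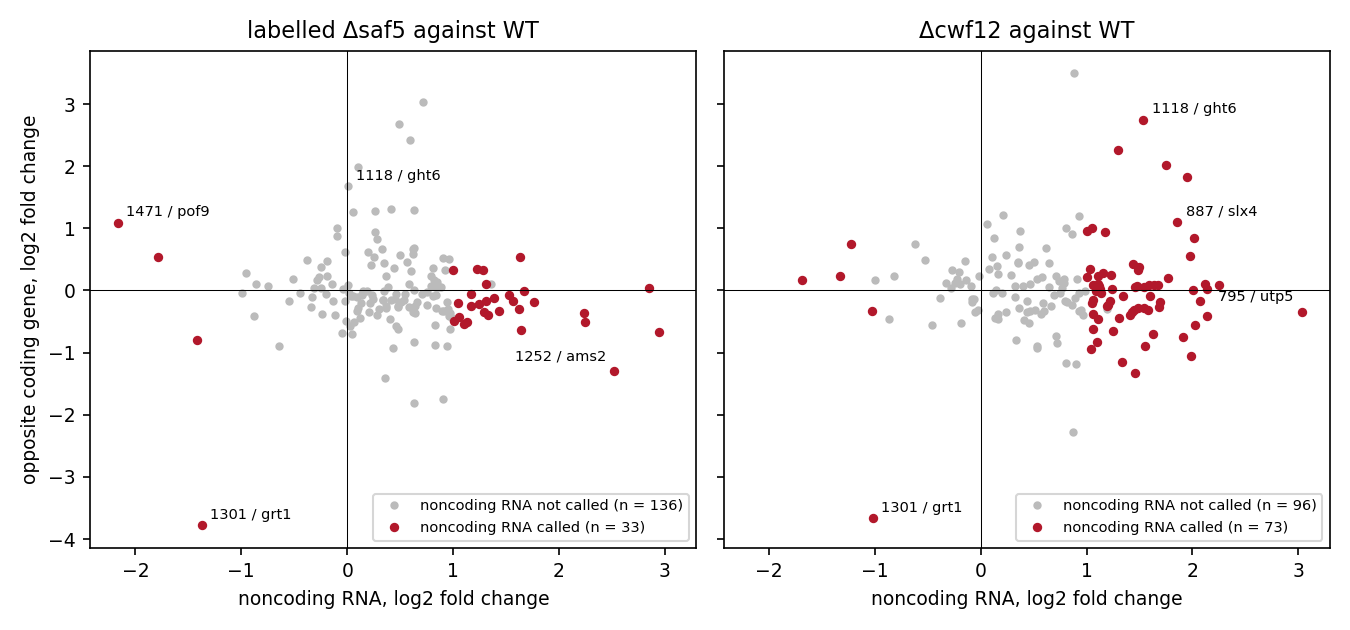
Log2 fold change against WT of each long noncoding RNA (horizontal) and of the coding gene opposite most of its span (vertical), for 169 pairs, in the *Δsaf5*-labelled libraries (left) and in *Δcwf12* (right); red points are noncoding RNAs called. Red points spread to the right while most coding genes stay near zero, with *ams2* (-1.29) opposite SPNCRNA.1252, *pof9* (1.09) opposite SPNCRNA.1471, *grt1* (-3.78 and -3.67) opposite SPNCRNA.1301 and *ght6* (2.75) opposite SPNCRNA.1118 as the marked exceptions.

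The factors known to limit noncoding RNA were measured as coding genes. By edgeR, none of 28 genes of RNA elimination and surveillance (among them *mmi1*, *red1*, *rrp6* and *dis3*) was called in either deletion, with log2 fold changes between -0.72 and 0.19 in the *Δsaf5*-labelled libraries and between -0.48 and 0.37 in *Δcwf12*. None of 19 genes of chromatin silencing and cryptic transcription (-0.34 to 0.28, and -0.51 to 0.20) and none of 14 genes of cleavage and termination (-0.43 to 0.25, and -0.45 to 0.44) was called either. DESeq2 called 0 of these genes as well, while an unadjusted p under 0.05 from edgeR was reached by 12, 11 and 3 of the 3 lists in the *Δsaf5*-labelled libraries and by 10, 10 and 7 in *Δcwf12*. Over all genes tested that p was reached by 56.7% and 56.0%, against 42.9%, 57.9% and 21.4% of the 3 lists in the *Δsaf5*-labelled libraries and 35.7%, 52.6% and 50% in *Δcwf12*. *exo2*, the cytoplasmic 5′ exonuclease, gave the lowest of these values, -0.72, in the *Δsaf5*-labelled libraries (adjusted p = 7.5e-06 from edgeR). These lists say nothing of protein levels or activity, nor of splicing, since gene counts do not separate spliced from unspliced transcripts. Members with a gene name in the annotation included SPNCRNA.111 (*rse1*), SPNCRNA.600 (*nc-tco1*) and SPNCRNA.928 (*meu16*). SPNCRNA.111 stood at 40.6 and 60.4 CPM in WT, 55.1 and 53.0 in the *Δsaf5*-labelled libraries and 56.0 and 59.0 in *Δcwf12*. The log2 fold changes of these 3 members were 0.10 and 0.18, -0.59 and -0.19, and 0.48 and 0.72, the *Δsaf5*-labelled libraries first in each pair. None of these 3 was called. SPNCRNA.584, described above, also has a gene name and was called higher in both deletions by edgeR, on few WT reads. It is a member only through its counts in the *Δsaf5*-labelled libraries.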

How the data were processed

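RNA from 2 cultures per strain was sequenced as paired reads from libraries made with a stranded mRNA kit, per the labels. The authors trimmed (Trimmomatic), mapped to ASM294v2 with STAR and counted with HTSeq. The deposited values are raw counts per gene without normalization, beside a gene length. Strand setting, feature type and annotation release are not given in the sources used here. Library columns were matched to samples by name. The members and gene lists were chosen with earlier results of these data known.

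Counts were fitted with edgeR 4.0.16 in R 4.3.3: filterByExpr by strain, TMM factors, 1 quasi-likelihood model of all 6 libraries, Benjamini-Hochberg adjustment over 6018 genes, and calls for log2 fold changes of 1 or more in either direction whose adjusted p was under 0.05. The standard error of a fold change was taken from its size and the F statistic. P-values rest on 2 libraries per strain. The model takes the spread of a gene as the same in all strains, while WT replicates differed more than those of the deletions. Chi-square per degree of freedom was 22.1 for WT, 6.17 for the *Δsaf5*-labelled libraries and 2.0 for *Δcwf12*. P-values against WT may thus be too small, which was not tested. On simulated counts with log2 changes of 2, edgeR recovered 200 of 200 changed genes and called 0 of the other 5677. The changed genes were drawn only from those above a minimum WT level, and the spread was taken from the fit itself. Changes of transcripts with few reads, and changes near the threshold, were therefore not covered. Alternatives were DESeq2 1.42.0, RLE factors, other count filters, only the strains compared, a replicate block, each library left out, and, chosen after seeing the data, opposite-strand reads or the lowest level per kb taken off and members without same-strand overlap. Named members were, for each deletion against WT, the 10 largest and 10 smallest called log2 fold changes with separated libraries, the 5 of each between the deletions, the 8 highest WT levels per kb, and members with gene names or at the limits. Positions and sequences are from the RefSeq annotation of ASM294v3, which matched 6846 of 7268 identifiers. The promoter windows of some named members are not reported here.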

Additional observations from a re-analysis of the deposited data

Results flagged for a closer look

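Members among those named whose change differed between the deletions in edgeR's direct contrast of the *Δsaf5*-labelled libraries against *Δcwf12* (thresholds as in the report) are given here as log2 fold changes. Higher in the *Δsaf5*-labelled libraries were SPNCRNA.1675 (2.13), SPNCRNA.1137 (1.75), SPNCRNA.1068 (1.6), SPNCRNA.918 (1.57), SPNCRNA.322 (1.44), SPNCRNA.1489 (1.42), SPNCRNA.1217 (1.4), SPNCRNA.1467 (1.16) and SPNCRNA.725 (1.07). Lower were SPNCRNA.1278 (-1.0), SPNCRNA.1667 (-1.02), SPNCRNA.980 (-1.13), SPNCRNA.1263 (-1.15), SPNCRNA.1397 (-1.17), SPNCRNA.1626 (-1.23), SPNCRNA.1690 (-1.24), SPNCRNA.1118 (-1.53), SPNCRNA.630 (-1.54), SPNCRNA.795 (-1.6), SPNCRNA.1643 (-1.65), SPNCRNA.1435 (-1.67), SPNCRNA.1195 (-1.72), SPNCRNA.872 (-1.83), SPNCRNA.1606 (-2.14), SPNCRNA.1644 (-2.22), SPNCRNA.1546 (-2.37), SPNCRNA.763 (-2.41) and SPNCRNA.1471 (-2.49). The calls of SPNCRNA.1278, SPNCRNA.1667, SPNCRNA.1217, SPNCRNA.725 and SPNCRNA.918 were lost in at least 1 fit that left out a library. Without replicate 1 of the *Δsaf5*-labelled libraries, SPNCRNA.918 gave 1.22, SPNCRNA.725 0.94 and SPNCRNA.1667 -0.99. Without replicate 2 of them, SPNCRNA.1217 gave 1.15 and SPNCRNA.1278 -0.93.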

How the results depend on the processing

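All 6 counts of called members stayed within 1.5 times of their value under every alternative except a call by adjusted p alone, which gave 98 higher and 28 lower in the *Δsaf5*-labelled libraries, 146 and 19 in *Δcwf12*, and 39 and 102 between the deletions. Leaving out 1 library gave 37 to 43 higher and 12 to 17 lower in the *Δsaf5*-labelled libraries, 80 to 91 and 8 to 10 in *Δcwf12*, and 10 to 17 and 45 to 50 between the deletions, where the lone library is assumed to vary like the others. DESeq2 gave 34 and 14, 80 and 9, and 14 and 47. Taking off opposite-strand reads gave 42 and 14, 93 and 10, and 19 and 51, and taking off the lowest level per kb in each library gave 30 and 17, 81 and 13, and 18 and 55. Replicate numbers did not pair the samples (correlations of deviations 0.05, 0.00 and -0.01), and a replicate block gave 37 and 13, 85 and 9, and 16 and 48. As a percent of the counts on all noncoding RNAs, the members held 43.8 and 43.7 in WT, 42.2 and 42.7 in the *Δsaf5*-labelled libraries and 47.8 and 47.0 in *Δcwf12*, so the order of WT and the *Δsaf5*-labelled libraries depends on the denominator. Of 1127 values for 82 called fold changes of named members under alternatives, 1082 stayed called, 45 lost the call and 0 changed sign. Fold changes of transcripts that an alternative dropped have no value there and are not in these totals. With at least 10 counts required in every library, 65 of the 82 stayed called and 1 lost the call. Taking off the lowest level per kb gave 76 and 2. Some fits left out a library of the strain outside the contrast. At 2 libraries per strain, members with few reads, such as SPNCRNA.1121 and SPNCRNA.584, are measured with wide errors.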
